A study of Mus musculus with 12 samples.

Results

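The INK4 and KIP families are the inhibitors of the cyclin-dependent kinases (CDKs) that drive the cell cycle. Their 6 genes Cdkn2a, Cdkn2b, Cdkn2c and Cdkn2d (INK4) and Cdkn1b and Cdkn1c (KIP) were taken by symbol from the table of RPKM (reads scaled by gene length and library size) and are 6 of 21583 genes with usable values. Cdkn1a, the remaining KIP gene, was not among them and is given below with the p53 genes. The RNA came from 12 libraries of 3T9MycER cells, an immortalised mouse embryo fibroblast line that carries a fusion of Myc with a hormone-binding domain of the estrogen receptor, which 4-hydroxytamoxifen (OHT) turns on. All 6 groups carried this fusion and held 2 libraries each. They were DMSO (the solvent), DMSO + OHT, VP (verteporfin, 20 µM, which keeps YAP from acting through TEAD), VP + OHT, Y27 (Y27632, 50 µM, an inhibitor of the ROCK kinases) and Y27 + OHT, with the inhibitors given for 8 hours per the labels. The exact dose and the duration of OHT in each of these libraries are not given in the sources used here, and the sources differ on whether the cells were confluent, starved of serum or in full serum. No source says whether the 2 libraries of a group are separate cultures, and the p-values therefore reflect only how far these libraries differ, which may be technical.

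INK4 proteins (p16, p15, p18 and p19) bind Cdk4 and Cdk6 and keep D-type cyclins from activating them, which holds Rb in its growth-suppressing form. KIP proteins (p21, p27 and p57) bind whole cyclin-CDK complexes, above all those of cyclin E and cyclin A with Cdk2. Fibroblasts are known to raise INK4 genes as they age in culture, TGF-beta signalling induces Cdkn2b, FOXO factors induce Cdkn1b, and Myc is known to repress Cdkn2b together with its partner Miz1 and to speed the loss of p27 protein.

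The libraries held 21857777 to 30856488 reads, with 30.3% to 36.0% of them in genes, and replicate libraries differed by more than read sampling (chi-square per gene 1.68 to 3.67). Of the 8 fibroblast markers 7 passed the expression minimum, with Thy1 near 0 (mean 0.00897 RPKM), and their summed level ran from 119.8 to 255 RPKM, lowest in VP + OHT and highest in Y27. Of the 6 macrophage markers Cd14 and Cd68 passed, with the sum at 2.23 to 12.1 RPKM and highest in VP + OHT, while Ptprc, Csf1r, Emr1 and Itgam had means of at most 0.0411 RPKM. None of the 6 epithelial, 5 endothelial and 6 adipocyte and muscle markers passed, with highest sums of 0.116, 0.15 and 1.01 RPKM and with Myod1 at 0 in every library. The part of these shifts in the results below was not tested. In RNA from whole cultures, fewer cells expressing a gene and less RNA per cell cannot be told apart.

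Of the 6 inhibitor genes 4 (Cdkn2a, Cdkn2b, Cdkn2c and Cdkn1b) passed the expression minimum, a mean of 0.5 RPKM over the 12 libraries, and were tested among 11061 genes. Cdkn2d and Cdkn1c did not pass and are given as reads. Because RPKM are scaled to gene length, levels can be set side by side as far as the lengths used hold. For Cdkn1b the length behind the RPKM was 4380 bases beside an annotated 2393, so its place in the order is less sure. In DMSO the order of mean levels was Cdkn2a (23.7 RPKM), Cdkn2b (17.8), Cdkn1b (15.2) and Cdkn2c (6.59), and no 2 neighbours in that order overlapped between their libraries. DMSO + OHT, Y27 and Y27 + OHT kept that order, with an overlap only between Cdkn2b (13.5 to 18.0 RPKM) and Cdkn1b (12.8 to 13.7 RPKM) in DMSO + OHT. In VP and in VP + OHT the order of the leading genes was turned, with Cdkn2b at 29.5 and 29.9 RPKM above Cdkn2a at 23.5 and 24.4 RPKM, again without overlap. The ratio of the Cdkn2b to the Cdkn2a level was 0.749 ± 0.0042 (SD, n = 2) in DMSO and 1.26 ± 0.064 (n = 2) in VP. The summed level of all 6 genes had group means between 58.3 RPKM in Y27 + OHT and 68.4 RPKM in VP + OHT.

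**Figure D1:**
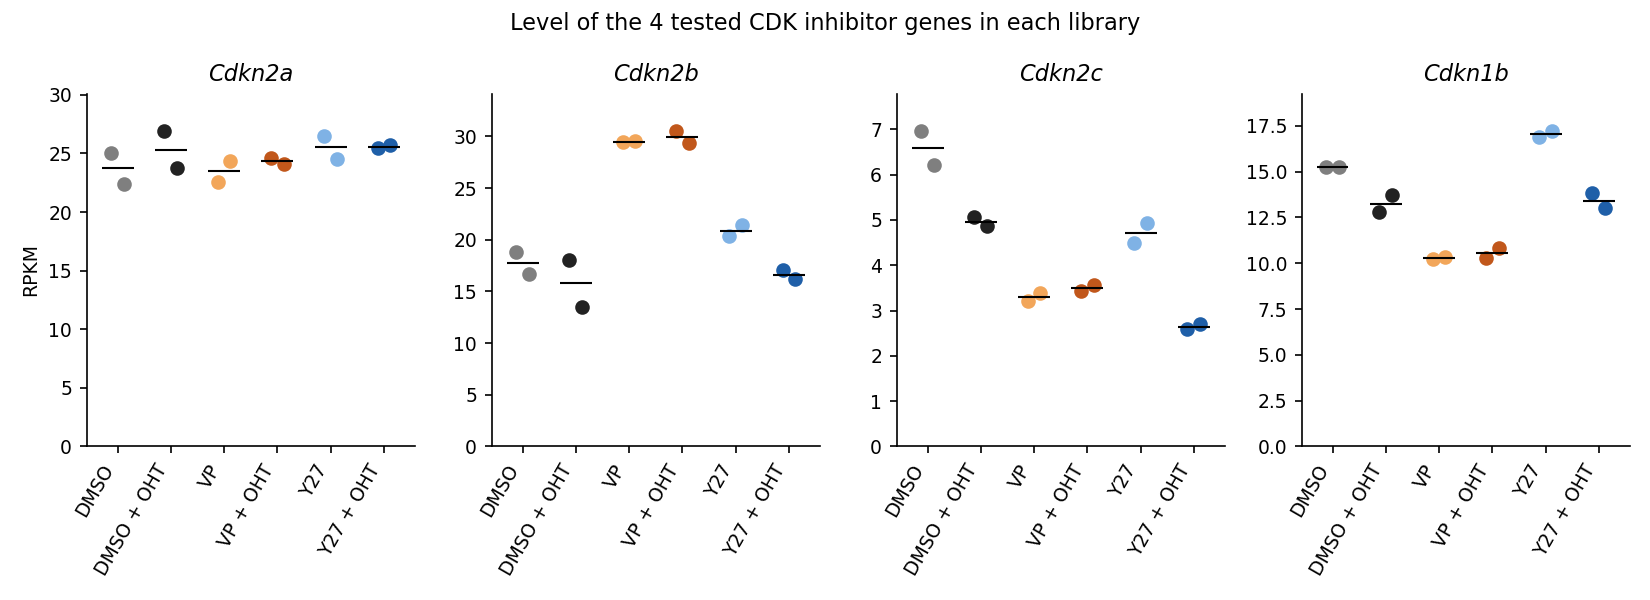
Level in RPKM (vertical axes, each starting at 0) of Cdkn2a, Cdkn2b, Cdkn2c and Cdkn1b in each of the 12 libraries by group. Points are single libraries and lines group means. Cdkn2b lies at 29.4 to 30.5 RPKM in the 4 libraries with VP, while Cdkn2a stays between 22.4 and 26.9 RPKM in all 12.

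Cdkn2a, which encodes p16Ink4a and, in another reading frame, the p53 activator p19Arf, was the most even of the tested inhibitor genes. The table has a single value for the gene and does not tell its products apart. The Cdkn2a level was 25.1 and 22.4 RPKM in the DMSO libraries and 26.9 and 23.8 with OHT, 22.6 and 24.4 in the VP libraries and 24.6 and 24.1 with OHT, 26.5 and 24.5 in the Y27 libraries and 25.4 and 25.7 with OHT. The 12 libraries lay close together, and the groups overlapped in every comparison except VP against Y27. On the log2(RPKM + 1) scale, on which all differences below are given, its 6 group means spanned 0.12, a span smaller than that of all but 0.416% of the genes tested. The differences from DMSO were -0.01 for VP (95% interval -0.19 to 0.16, limma adjusted p = 0.895), 0.10 for Y27 (-0.07 to 0.28, adjusted p = 0.313) and 0.09 for OHT (-0.08 to 0.26, adjusted p = 0.417). Under median-of-ratios scaling the sign of the VP and OHT differences flipped (0.086 and -0.004) and Y27 passed at 0.18 (adjusted p = 0.0487). In RefSeq on GRCm38.p6 Cdkn2a has 2 transcription starts that lie 12427 bases apart on chromosome 4, and the start of Cdkn2b lies 16413 bases upstream of the outer start.

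Cdkn2b, the gene of p15Ink4b, was the only 1 of the 4 tested genes named above that was higher with VP than with DMSO. The Cdkn2b level was 18.9 and 16.7 RPKM in the DMSO libraries and 18.0 and 13.5 with OHT, 29.4 and 29.5 in the VP libraries and 30.5 and 29.4 with OHT, 20.3 and 21.4 in the Y27 libraries and 17.0 and 16.2 with OHT. Every library with VP lay above every library without it, and the libraries of DMSO + OHT were the most spread pair (coefficient of variation 20.4%). Without OHT, VP raised Cdkn2b from 17.8 ± 1.5 to 29.5 ± 0.0747 RPKM (SD, n = 2 each), which is 0.70 on the log2 scale (SE 0.10, limma adjusted p = 4.25e-05). With OHT, VP raised it from 15.8 ± 3.21 to 29.9 ± 0.787 RPKM (n = 2 each), a log2 change of 0.90 (SE 0.10, adjusted p = 4.86e-06). Cdkn2b was also higher in VP than in Y27, by 0.48 without and 0.81 with OHT (adjusted p = 0.000979 and 1.16e-05). The Y27 libraries lay above those of DMSO without overlap, but the log2 difference of 0.22 (95% interval -0.00 to 0.45) did not pass (adjusted p = 0.09). It passed without DMSO + OHT replicate 1 or 2 (0.22, adjusted p = 0.0145 and 0.0146), which enter through the shared spread, and under median-of-ratios scaling (0.30, adjusted p = 0.0142) and voom (0.23, adjusted p = 0.0327). With OHT, Y27 differed from DMSO by 0.08 (95% interval -0.14 to 0.31, adjusted p = 0.554), by 0.28 without DMSO + OHT replicate 1 (adjusted p = 0.0191) and by -0.11 without replicate 2 (adjusted p = 0.304).

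The OHT difference of Cdkn2b was small, and its call varied with the libraries in the fit. In Y27, OHT lowered Cdkn2b from 20.9 to 16.6 RPKM (log2 change -0.31, SE 0.10, limma adjusted p = 0.0334), and leaving out any of the 4 libraries of those groups ended the call but kept the change at -0.35 to -0.28 (adjusted p = 0.0686 and 0.152 without Y27 replicate 1 and 2, 0.0727 and 0.159 without Y27 + OHT replicate 1 and 2). In DMSO the difference of -0.18 did not pass (adjusted p = 0.214). It came to -0.37 without DMSO + OHT replicate 1 (adjusted p = 0.00693) and to 0.02 without replicate 2 (adjusted p = 0.866), and it passed under median-of-ratios scaling (-0.27, adjusted p = 0.0359), quantile normalization (-0.32, adjusted p = 0.00903) and voom on restored reads (-0.29, adjusted p = 0.0174). In VP it was 0.02 (95% interval -0.20 to 0.25, adjusted p = 0.922), and the sign flipped to -0.06 under median-of-ratios scaling.

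The sequence upstream of the Cdkn2b start is shown because VP raised Cdkn2b. It is the 250 bases before the RefSeq start on the minus strand of GRCm38.p6 (chr4:89311033-89311282), while the RPKM were counted on mm9.
Cdkn2b upstream: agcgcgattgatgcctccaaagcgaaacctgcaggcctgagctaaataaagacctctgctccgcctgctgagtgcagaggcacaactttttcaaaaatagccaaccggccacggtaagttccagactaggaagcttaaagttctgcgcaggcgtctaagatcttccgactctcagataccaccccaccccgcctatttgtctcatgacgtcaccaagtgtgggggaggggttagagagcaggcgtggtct
The following motifs were searched on both strands of this window: the E-box bound by Myc (CACGTG), the TEAD motif (GGAATG), the FOXO motif (TGTTTAC), the motif of SP1 and KLF factors (GGGCGG), the CCAAT box, and an E2F motif written either as TTTCCCGC or as TTTGGCGC. None of these letters occurred in the Cdkn2b window, so it is printed without capitals. Among all 32851 mouse promoter windows of that length 6.02% held CACGTG, 12.6% GGAATG, 3.17% TGTTTAC, 32.7% GGGCGG, 33.8% CCAAT and 1.3% an E2F motif.

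Cdkn2c, the gene of p18Ink4c, had its highest level in DMSO and the widest span of group means of the tested inhibitor genes. The Cdkn2c level was 6.95 and 6.22 RPKM in the DMSO libraries and 5.05 and 4.87 with OHT, 3.22 and 3.39 in the VP libraries and 3.43 and 3.56 with OHT, 4.48 and 4.94 in the Y27 libraries and 2.60 and 2.69 with OHT. The DMSO libraries were the highest and the Y27 + OHT libraries the lowest of all 12. OHT lowered Cdkn2c in DMSO from 6.59 ± 0.519 to 4.96 ± 0.129 RPKM (SD, n = 2 each; log2 change -0.35, SE 0.08, limma adjusted p = 0.00342). OHT also lowered it in Y27, from 4.71 ± 0.324 to 2.65 ± 0.0638 RPKM (n = 2 each; log2 change -0.65, adjusted p = 2.78e-05). In VP the OHT difference was 0.06 (95% interval -0.10 to 0.22, adjusted p = 0.676), although the libraries did not overlap, with the sign flipped under median-of-ratios scaling (-0.01).

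Both inhibitors lowered Cdkn2c whether or not OHT was present. Without OHT the VP difference was -0.82 (SE 0.08, limma adjusted p = 5.18e-07) and with OHT it was -0.41 (adjusted p = 0.000337), or -0.26 under quantile normalization (adjusted p = 0.00341). Y27 lowered it by -0.41 (adjusted p = 0.000567) without OHT and -0.71 (adjusted p = 1.04e-05) with OHT. Without OHT Cdkn2c was lower in VP than in Y27 by -0.41 (adjusted p = 0.000295), and with OHT it was higher in VP than in Y27 by 0.30 (adjusted p = 0.00321), so the order of VP and Y27 turned with OHT. The difference between the OHT responses in VP and in DMSO was 0.41 (SE 0.11, 95% interval 0.18 to 0.64) and just missed the threshold (adjusted p = 0.0519). It passed under median-of-ratios scaling (0.42, adjusted p = 0.0185), quantile normalization (0.45, adjusted p = 0.0106), voom on restored reads (0.48, adjusted p = 0.0377), a fit of the 8 libraries with and without VP (0.41, adjusted p = 0.0496), and without Y27 replicate 1 (adjusted p = 0.0449) or 2 (adjusted p = 0.0452).

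An E-box lies just after the inner of the 2 RefSeq starts of Cdkn2c, which are 1384 bases apart. It is shown because Cdkn2c fell with OHT in DMSO and in Y27, and it begins 34 bases after that start on the minus strand. The bases around it are at chr4:109665323-109665348 of GRCm38.p6, with CACGTG in capitals.
Cdkn2c E-box: gctgaataatCACGTGtgaatcgagg
Of the 7 promoter entries of the inhibitor genes this was the only E-box in the 300 bases searched, and 7.15% of all mouse entries held a CACGTG there. The 250 bases upstream of these starts held none. The RPKM do not tell the 2 starts apart, and whether the site bears on the OHT difference was not tested. Upstream of the outer Cdkn2c start the 250 bases held GGGCGG at 3 places.

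Cdkn2d, the gene of p19Ink4d, was barely detected. Its reads were 6 and 8 in the DMSO libraries and 8 and 3 with OHT, 5 and 6 in the VP libraries and 2 and 6 with OHT, 6 and 6 in the Y27 libraries and 6 and 4 with OHT. These are levels of 0.0263 to 0.127 RPKM. The lowest library was in VP + OHT and the highest in DMSO + OHT, whose own libraries lay far apart. The group sums of 8 to 14 reads have exact Poisson 95% intervals from 3.45 to 15.8 reads in VP + OHT to 7.65 to 23.5 reads in DMSO, so differences between groups were not detectable at this depth. These intervals cover counting error only.

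Cdkn1b, the gene of p27Kip1, was lowered by VP, and by OHT in DMSO and in Y27 but not in VP. The Cdkn1b level was 15.2 and 15.2 RPKM in the DMSO libraries and 12.8 and 13.7 with OHT, 10.2 and 10.3 in the VP libraries and 10.3 and 10.8 with OHT, 16.9 and 17.2 in the Y27 libraries and 13.8 and 13.0 with OHT. The 4 libraries with VP were the lowest and the Y27 libraries the highest. VP lowered Cdkn1b from 15.2 ± 0.0072 to 10.3 ± 0.0966 RPKM without OHT (SD, n = 2 each; log2 change -0.53, SE 0.06, limma adjusted p = 3.92e-06) and from 13.3 ± 0.637 to 10.6 ± 0.398 RPKM with OHT (n = 2 each; log2 change -0.30, adjusted p = 0.000609). The latter was -0.20 under median-of-ratios scaling (adjusted p = 0.00647). Against Y27 it was lower in VP by -0.68 without and -0.32 with OHT (adjusted p = 2.83e-07 and 0.000407).

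OHT lowered Cdkn1b by -0.19 in DMSO (SE 0.06, limma adjusted p = 0.0278) and by -0.33 in Y27 (SE 0.06, adjusted p = 0.00107). The call in DMSO ended without DMSO replicate 1 (-0.19, adjusted p = 0.0714), DMSO replicate 2 (-0.19, adjusted p = 0.0864) and DMSO + OHT replicate 1 (-0.14, adjusted p = 0.181), and in a fit of the 8 libraries with and without Y27 (adjusted p = 0.0635). The change was larger under median-of-ratios scaling (-0.28, adjusted p = 0.00197), quantile normalization (-0.33, adjusted p = 0.00147) and voom on restored reads (-0.30, adjusted p = 0.00156). In VP the OHT difference was 0.04 (95% interval -0.09 to 0.17, adjusted p = 0.763), with the sign flipped to -0.05 under median-of-ratios scaling. The difference between the OHT responses in VP and DMSO, 0.22 (95% interval 0.04 to 0.41), did not pass (adjusted p = 0.176). Y27 without OHT was higher than DMSO by 0.15 (SE 0.06, adjusted p = 0.0482), a call that ended with a pseudocount of 0.1 (0.16, adjusted p = 0.0521), under quantile normalization (0.12, adjusted p = 0.113), in the 8 libraries with and without Y27 (0.15, adjusted p = 0.0953) and when any library other than the DMSO + OHT pair was left out. It was 0.23 under median-of-ratios scaling (adjusted p = 0.00362) and 0.16 with voom (adjusted p = 0.0357). With a library left out the difference stayed at 0.14 to 0.17, and the adjusted p was 0.108 and 0.109 without DMSO replicate 1 and 2, 0.1 and 0.155 without Y27 replicate 1 and 2, 0.0624 and 0.0623 without VP replicate 1 and 2, 0.0698 without either VP + OHT library, and 0.0584 and 0.0583 without Y27 + OHT replicate 1 and 2. With OHT, Y27 differed from DMSO by 0.01 (95% interval -0.12 to 0.14, adjusted p = 0.871).

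The Cdkn1b upstream sequence is set beside that of Cdkn2b because VP moved these genes in opposite directions. It is the 250 bases before the RefSeq start on the plus strand of GRCm38.p6 (chr6:134920151-134920400), with capitals for CCAAT (2 places) and GGGCGG (1 place), and it held no E-box, TEAD, FOXO or E2F motif.
Cdkn1b upstream: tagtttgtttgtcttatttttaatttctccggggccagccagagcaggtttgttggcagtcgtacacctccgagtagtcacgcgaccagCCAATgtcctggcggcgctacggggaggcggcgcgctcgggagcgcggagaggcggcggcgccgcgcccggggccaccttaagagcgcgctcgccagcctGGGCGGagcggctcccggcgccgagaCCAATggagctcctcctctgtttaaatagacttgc
A match is a stretch of letters and not a shown binding site. The window of the outer Cdkn2a start also held GGGCGG at 2 places and 1 E2F motif, and Cdkn2a did not pass with VP. Neither Cdkn2c window held CCAAT, and VP lowered Cdkn2c. Whether any of these motifs bears on the VP differences was not tested.

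Cdkn1c, the gene of p57Kip2, which is expressed from the maternal chromosome in most tissues, had 3 reads in all. They were 1 read in Y27 replicate 2 and 2 reads in Y27 + OHT replicate 1, and the other 10 libraries had 0. A count of 0 allows up to 3 reads, which is a level of 0.0501 to 0.0707 RPKM in the libraries with none. No fold is given for so few reads. In GENCODE an antisense gene, Gm44732, overlaps Cdkn1c, and without strand in the counting their reads cannot be told apart.

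**Figure D2:**
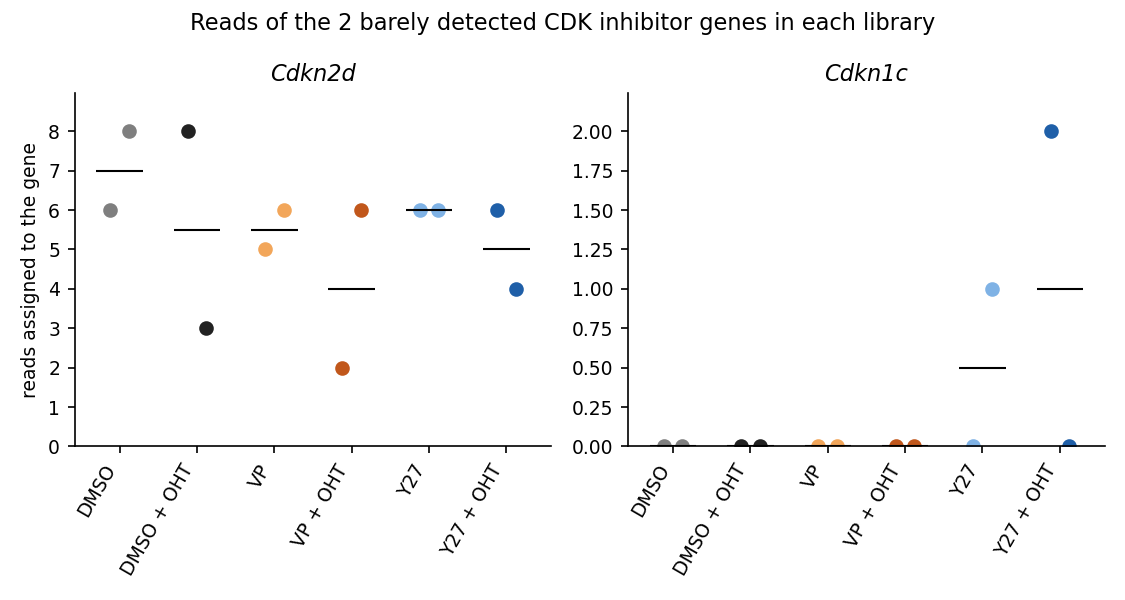
Reads assigned to Cdkn2d and Cdkn1c (vertical axes, starting at 0) in each of the 12 libraries. Points are single libraries and lines group means. Cdkn2d has 2 to 8 reads in every library and Cdkn1c has reads in only 2 of 12.

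VP and Y27 were compared with the same DMSO libraries, so these comparisons share their controls and are not independent of each other. The counts of called inhibitor genes are read against the share of all 11061 genes that passed the same limma test at an adjusted p below 0.05, since the treatments moved a large part of the transcriptome. VP without OHT called 3 of 4 tested genes, 1 higher (Cdkn2b) and 2 lower (Cdkn1b and Cdkn2c), where 67.9% of all genes were called, 27% higher and 40.8% lower. VP with OHT called the same 3 genes in the same directions, where 64.7% of all genes were called, 25.5% higher and 39.2% lower. These shares are near the background, so the number of calls is no mark of the inhibitor genes. The median difference of the 4 tested genes was -0.27 without and -0.18 with OHT, beside -0.08 and -0.09 over all genes.

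OHT in DMSO called 2 of 4 (Cdkn1b and Cdkn2c, both lower), where 34.3% of all genes were called, 24.3% higher and 10.1% lower. OHT in Y27 called 3 of 4 (Cdkn1b, Cdkn2b and Cdkn2c, all lower), where 31.9% were called, 20% higher and 11.9% lower. OHT in VP called 0 of 4, where 5.94% of all genes were called, 5.42% higher and 0.515% lower. The unadjusted limma p of the tested inhibitor genes there ran from 0.434 (Cdkn2c) to 0.833 (Cdkn2b). By voom on restored reads 0 of 4 were called, beside 328 genes called higher and 157 lower. The members' median differences with OHT were -0.18 in DMSO, -0.32 in Y27 and 0.04 in VP, beside 0.06, 0.00 and 0.08 over all genes.

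Y27 without OHT called 2 of 4 (Cdkn1b higher and Cdkn2c lower), where 50.7% were called, 17.2% higher and 33.6% lower. Y27 with OHT called 1 of 4 (Cdkn2c, lower), where 43.3% were called, 10.3% higher and 33% lower. In that comparison quantile normalization moved the median of all genes by 0.11, and relative to the median of all genes Cdkn2c differed by -0.61. VP against Y27, given at different doses, called 3 of 4 without OHT (Cdkn2b higher, Cdkn1b and Cdkn2c lower), where 70.6% were called, 34.5% higher and 36.2% lower. With OHT it called 3 of 4 (Cdkn2b and Cdkn2c higher, Cdkn1b lower), where 66.4% were called, 34.6% higher and 31.8% lower.

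The interaction of VP with OHT, the OHT difference in VP minus that in DMSO, called 0 of 4 tested genes by limma, where 4.11% of all genes were called, 1.51% higher and 2.6% lower. The unadjusted limma p was 0.00216 for Cdkn2c, 0.0205 for Cdkn1b, 0.2 for Cdkn2b and 0.737 for Cdkn2a. Voom on restored reads called 1 (Cdkn2c), where 819 of 11061 genes were called. The interaction of Y27 with OHT called 0 of 4, where 0.0633% of all genes were called, 0.0542% higher and 0.00904% lower. Its unadjusted limma p was 0.0149 for Cdkn2c (-0.30), 0.126 for Cdkn1b, 0.357 for Cdkn2b and 0.458 for Cdkn2a. Voom called 0, where 131 of 11061 genes were called. For an unadjusted p, here and for OHT in VP, the share of all genes below it is not given. These values therefore have no background beside them. The split of all calls depended on the scaling. Higher calls were 70.7% of all calls for OHT in DMSO and 49.7% under median-of-ratios scaling, 39.4% and 49.9% for VP with OHT, 33.9% and 47.1% for Y27 without OHT, 62.7% and 49.3% for OHT in Y27, 23.8% and 45.7% for Y27 with OHT, and 91.3% and 74.9% for OHT in VP. For VP without OHT they were 39.8%, and 51.1% under quantile normalization.

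**Figure D3:**
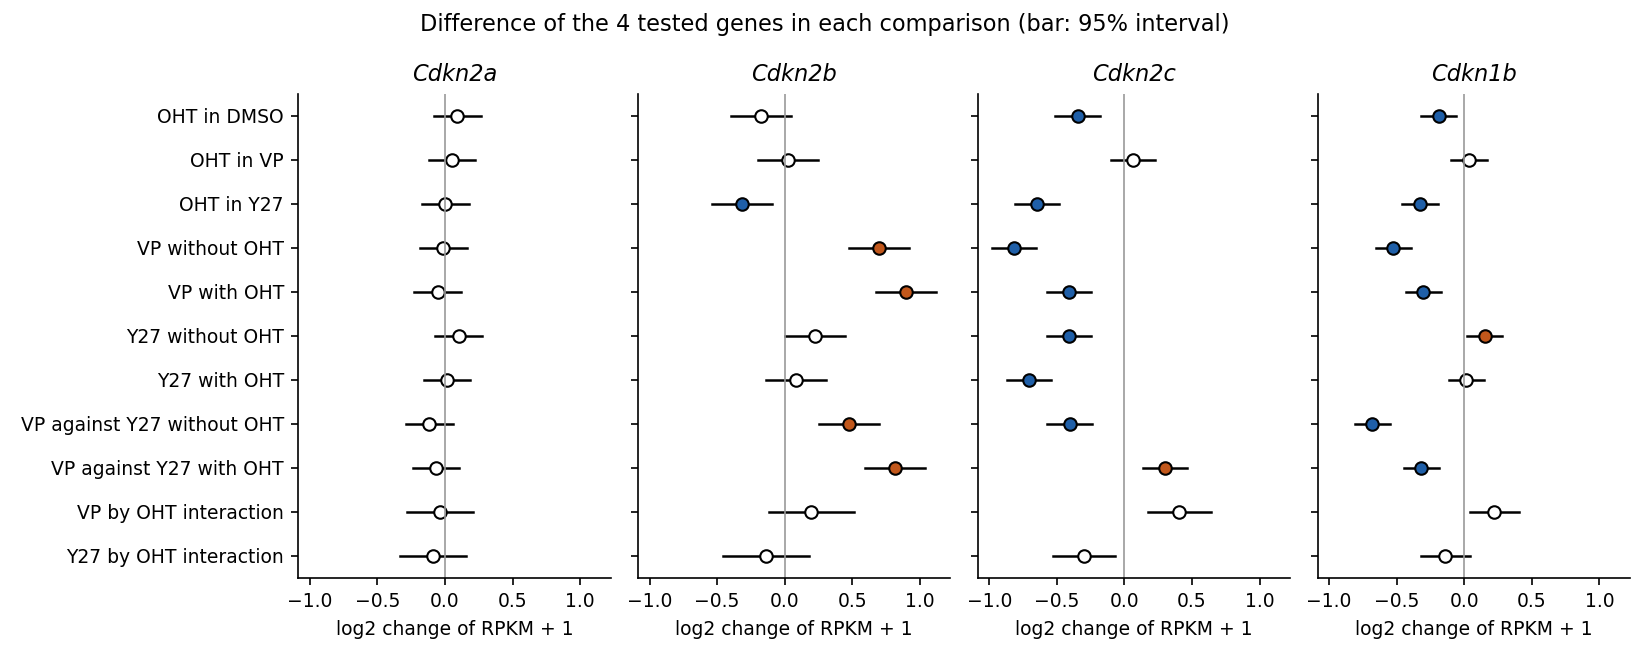
Difference on the log2(RPKM + 1) scale (horizontal axis) of Cdkn2a, Cdkn2b, Cdkn2c and Cdkn1b in 11 comparisons. Bars are 95% intervals, filled points passed an adjusted p of 0.05 (orange higher, blue lower) and open points did not. All Cdkn2a points are open, and the Cdkn2b points of VP against DMSO or Y27 lie between 0.48 and 0.90.

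The lists below are read beside the shares of all genes called, which were 24.3% higher and 10.1% lower for OHT in DMSO, 27% and 40.8% for VP without OHT, and 17.2% and 33.6% for Y27 without OHT. Under median-of-ratios scaling the higher and lower calls over 11043 genes were 1995 and 2020 for OHT in DMSO. They were 3812 and 4027 for VP without OHT, and 2925 and 3291 for Y27 without OHT. Under quantile normalization they were 4145 and 3972 of 11061 for VP without OHT, and 3284 and 2998 for Y27 without OHT. List counts under those settings are read beside these numbers. In the list of 5 D-type cyclins and their kinases, the targets of the INK4 proteins, all were tested, and OHT in DMSO raised 2 and lowered 0, with Cdk6 at 0.66 (SE 0.12, limma adjusted p = 0.000997) and Ccnd2 at 0.46 (adjusted p = 0.000972). VP without OHT raised Cdk6 by 0.94 (adjusted p = 1.11e-05) and lowered 2, Ccnd1 by -1.20 (adjusted p = 1.56e-07) and Ccnd3 by -0.60 (adjusted p = 4.2e-05). Y27 without OHT raised 0 and lowered 3, Cdk6 by -0.81, Ccnd2 by -0.43 and Ccnd1 by -0.33. Cdk4 was at 0.23, 0.00 and 0.16 in these comparisons and did not pass. The list medians were 0.23, -0.16 and -0.33, beside 0.06, -0.08 and -0.07 over all genes.

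Of the cyclins E, A and B with Cdk2 and Cdk1, 7 of 8 were tested, with Ccna1 below the minimum. OHT in DMSO raised 4 and lowered 1, with the largest changes in Ccne1 (1.05, SE 0.10, limma adjusted p = 1.12e-05), Ccne2 (0.69) and Ccna2 (0.37). VP without OHT raised 0 and lowered 7 of 7, beside 40.8% of all genes lowered, with Cdk1 at -0.63, Ccnb1 at -0.59 and Ccne1 at -0.54, and Cdk2, the kinase that p27 binds, at -0.36 (adjusted p = 0.00039). Under quantile normalization 5 were lower there. Y27 without OHT raised 0 and lowered 4, Ccne1 by -0.80, Ccna2 by -0.41, Ccnb1 by -0.40 and Cdk1 by -0.31, but 1 was higher and 1 lower under quantile normalization. In VP, OHT called 0 of the 5 INK4 targets and 0 of these 7 by limma, where 5.94% of all genes were called. By voom it called 0 of either list. The list medians of the 3 comparisons were 0.37, -0.42 and -0.31.

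Among 13 genes of the Rb family and the E2F factors, 10 were tested. OHT in DMSO raised 6 and lowered 0, led by E2f5 (0.51), Tfdp1 (0.49) and E2f3 (0.48). VP without OHT raised 3 and lowered 3, with the largest changes in Rbl2 (-1.34), which encodes the pocket protein p130, Tfdp2 (-1.21) and E2f1 (-1.05). Y27 without OHT raised 0 and lowered 4, with Rbl2 at -1.38, E2f6 at -0.57 and Rbl1 at -0.48, and 2 were higher and 4 lower under median-of-ratios scaling. With VP present, OHT raised 3 and lowered 0, Tfdp2 by 0.39, Rbl2 by 0.37 and E2f4 by 0.28, where 5.42% of all genes were higher.

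The p27 protein is marked for destruction by the SCF ligase with Skp2 and its cofactor Cks1b. Of 12 genes of p27 turnover, all tested, OHT in DMSO raised 6 and lowered 0, with Skp2 at 0.53 (SE 0.08, limma adjusted p = 0.000165), Rnf123 at 0.33 and Cks1b at 0.28 (adjusted p = 0.0325). Under median-of-ratios scaling 2 were higher and 1 lower. VP without OHT raised 2 and lowered 5, with Rchy1, another p27 ligase, at 0.48, Skp2 at -0.47 (adjusted p = 8.37e-05) and Cks1b at -0.40, and 5 were higher and 4 lower under median-of-ratios scaling. Y27 without OHT raised 3 and lowered 2, with Rnf123 at -0.44 (limma adjusted p = 0.00148), Rbx1 at 0.29 (adjusted p = 0.00234) and Ubac1 at -0.27 (adjusted p = 0.0106). Skp2 was at 0.12 there and did not pass (adjusted p = 0.193).

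Known regulators of INK4 and KIP transcription were 19 genes that all passed the minimum. VP without OHT raised 11 and lowered 5, or 16 of 19 where 67.9% of all genes were called, with Ets2, an inducer of Cdkn2a, at 2.16 (SE 0.08, limma adjusted p = 1.41e-10), Myc at 1.65 (adjusted p = 4.61e-09) and Foxo4 at -1.53. Of the FOXO factors, which induce Cdkn1b, Foxo1 and Foxo3 rose by 1.13 and 1.22, against Foxo4 at -1.53. Zbtb17, which encodes the Myc partner Miz1, rose by 0.81, and Id1, a repressor of Cdkn2a, fell by 0.81. Y27 without OHT raised 9 and lowered 4, where 50.7% of all genes were called, with Id1 at -1.38, Ets2 at 0.97 and Klf6 at 0.84. Foxo3 was at 0.63, Foxo1 at 0.39, Foxo4 at -0.39, Smad3 at 0.44 and Zbtb17 at 0.15 (limma adjusted p = 0.0835 for Zbtb17). OHT in DMSO raised 2 and lowered 2, with Myc at -0.85 (adjusted p = 2.27e-05) and Ets2 at 0.39. The sources used here do not say how reads of the MycER fusion were counted, and the Myc row may hold some of them. The list medians were 0.47, 0.21 and 0.01 for VP, Y27 and OHT.

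Polycomb proteins are known repressors of the Cdkn2a and Cdkn2b locus. Of a list of 19 genes around them 18 were tested, with Cbx7 below the minimum. The list also holds Kdm6b, which does not encode a Polycomb repressor. It counts among the genes raised by VP (0.72) and by Y27. Bmi1, the best known of these repressors, did not pass in any of the 3 comparisons, with 0.18 for OHT in DMSO, -0.02 for VP and 0.02 for Y27. VP without OHT raised 5 and lowered 7, led by Cbx6 (-1.36), Jarid2 (-0.83) and Cbx2 (-0.83), and 8 were higher and 6 lower under median-of-ratios scaling. Y27 raised 4 and lowered 5, with the H3K27 demethylase gene Kdm6b at 0.79 and Phc2 at 0.57, against 8 higher and 4 lower under that scaling. OHT in DMSO raised 4 and lowered 0, led by Cbx2 (0.35), and 2 were higher and 1 lower under that scaling. With VP present, OHT raised 1 of 18 and lowered 0, where 5.42% of all genes were higher and 0.515% lower. The gene was Ezh1, at 0.40 (limma adjusted p = 0.0028).

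The p19Arf product of Cdkn2a also acts on p53, and the KIP gene Cdkn1a is a p53 target. The Cdkn1a level was 0.674 and 0.574 RPKM in the DMSO libraries and 0.266 and 0.156 with OHT, 9.76 and 8.62 in the VP libraries and 8.45 and 7.98 with OHT, 0.743 and 1.09 in the Y27 libraries and 0.475 and 0.409 with OHT. The 4 libraries with VP stood far above the rest. In this list of 4 genes, all tested, VP without OHT raised 4, with Cdkn1a at 2.65 (SE 0.10, limma adjusted p = 1.42e-10), Mdm2 at 0.61 and Trp53 at 0.32. OHT in DMSO lowered Cdkn1a by -0.42 (adjusted p = 0.00536) and raised Trp53 by 0.23 (adjusted p = 0.0331), the latter call lost under median-of-ratios scaling, where 0 were higher. Y27 without OHT raised 1, Trp53, by 0.20 (adjusted p = 0.0369), with Cdkn1a at 0.23 (adjusted p = 0.0653).

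Of 12 neighbouring genes of the inhibitor loci 6 were tested. Mtap, which lies next to Cdkn2a and is often lost with it in human tumours, rose with OHT in DMSO by 0.42 (limma adjusted p = 0.000826), where Cdkn2a did not pass. OHT in DMSO raised 2 of 6 and lowered 0, VP raised 2 and lowered 3 with Slc44a2 at -1.20 and Faf1 at 0.49, and Y27 raised 1 and lowered 1. Of 10 other CDK regulators 7 were tested. OHT in DMSO raised 3 and lowered 0, led by the phosphatase gene Cdc25a (0.46), and 1 was higher under median-of-ratios scaling. VP raised 2 and lowered 3, led by Cdk7 (-0.98), the kinase that activates CDKs, and Cdc25b (-0.73). Y27 raised 1, Cdc25b by 0.61 and lowered 2, with Mnat1 at -0.45.

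**Figure D4:**
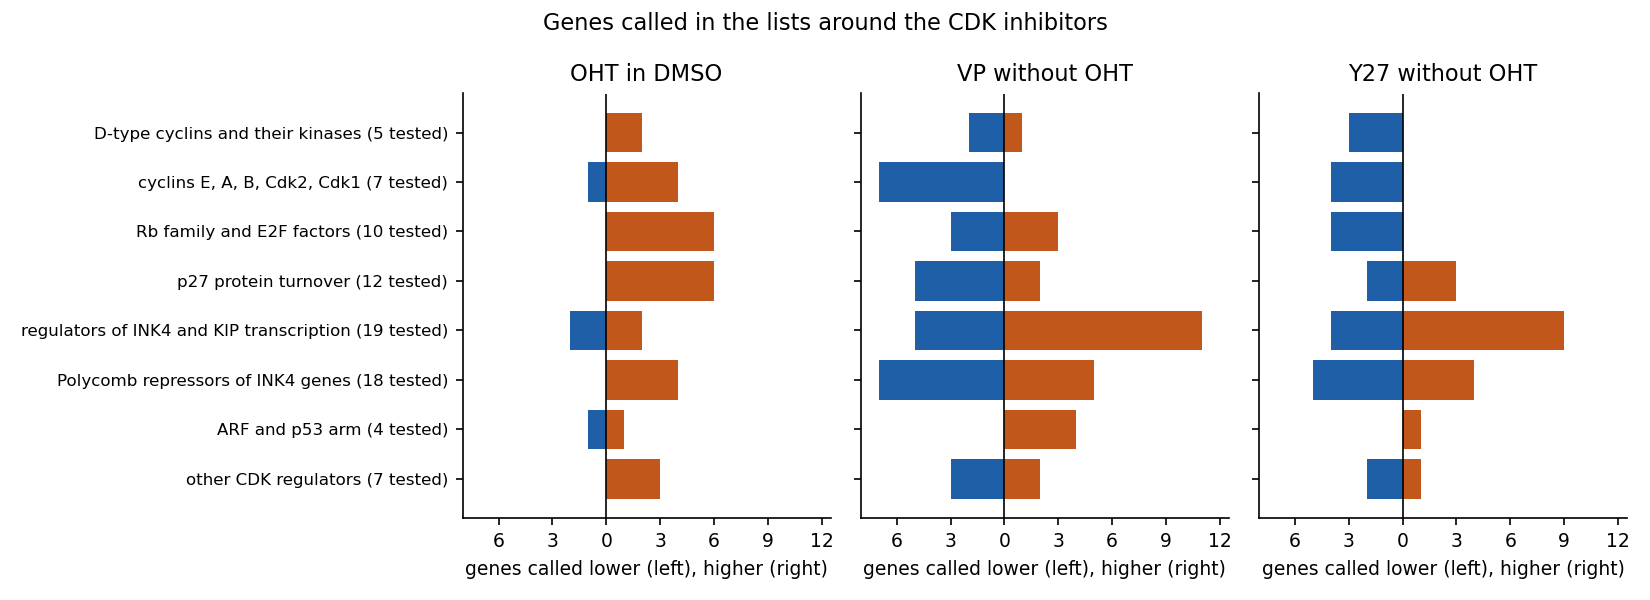
Number of genes called lower (left, blue) and higher (right, orange) by limma in 8 lists around the CDK inhibitors, for OHT in DMSO, VP without OHT and Y27 without OHT, with the number tested after each list's name. All 7 tested cyclins and kinases of the second list are lower with VP.

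The genes whose pattern over the 6 group means was most like that of an inhibitor gene were sought among the 11060 other genes tested, by the root-mean-square difference of centred log2(RPKM + 1) means. This was done for the 3 inhibitor genes whose means spanned at least 0.5, which were Cdkn1b (0.68), Cdkn2b (0.90) and Cdkn2c (1.06). Cdkn1b was nearest to Sdccag8 (difference 0.020), Stx5a (0.025) and Ctif (0.029). Cdkn2b was nearest to Stk38l (0.054), Prkd1 (0.056) and Mxd1 (0.056), the last of which encodes a Myc antagonist and went from 4.08 RPKM in DMSO to 7.89 in VP. Cdkn2c had no match as near, with 0610040B10Rik (0.085), Stoml1 (0.101) and Aim1 (0.103). These are descriptions over 6 group means.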

How the data were processed

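Total RNA of 12 libraries was sequenced, and the deposited RPKM are the authors' values, from TopHat2 2.0.8 alignments to mm9 and featureCounts 1.4.5-p1 per the submitters' processing notes. Deposited RPKM of 1 or more lacked the decimal sign (46.4% of 260052 values). It was put back by arithmetic, since reads, gene length and library total behind an RPKM are all whole numbers. Library totals came from intact values, and the place from intact values of the gene (2008 genes) or from whole reads with the annotated length (8944 genes); 10646 genes were intact. Among places that fitted, lengths near the annotation and small differences between groups, above all with OHT, were preferred. The other digits deposited by the authors, mean normalized counts from DESeq2, served to check the restored reads and agreed for 99.94% to 99.97% of genes within 0.003 on the log10 scale. A 10-fold shift of a whole gene would escape that check. Genes without an annotated length (43), 27 with date symbols, 3 with no place and 15 whose digits differed were left out. The authors' fold changes and p-values, also deposited, were not used. The length that makes all reads whole was 4380 bases for Cdkn1b and 2644 for Cdkn2d, beside annotated lengths of 2393 and 1423, so their read numbers are less sure.

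Genes whose mean reached 0.5 RPKM were tested with limma 3.58.1 in R 4.3.3 on log2(RPKM + 1), in 1 fit of 12 libraries (6 residual degrees of freedom) with a variance trend, two-sided, with Benjamini-Hochberg adjustment over all genes tested and a threshold of 0.05. Changes of genes near 1 RPKM are understated by the added 1. The fit was tested on simulated data with the level and spread of each of the 11061 genes. In the VP libraries 50 genes each were changed by 1, -1, 0.5 and -0.5 on the log2 scale, and no others. The fit called 48 and 49 of 50 at 1 and -1 and 44 and 41 of 50 at 0.5 and -0.5, with 11 false calls. Far fewer genes changed there than in the real VP without OHT comparison, where 67.9% were called. These rates need not hold for the real data. Alternatives were a pseudocount of 0.1, no filter, median-of-ratios scaling, quantile normalization, the replicate number as a block, fits of 8 libraries, voom on restored reads and leaving out each library. Lists are named by up to 3 tested genes of largest change and by genes that bind or regulate an inhibitor gene. The values of 1 list gene are not reported here. The inhibitor genes and lists were chosen with earlier results of these data known. Upstream sequences are from RefSeq on GRCm38.p6, where 5 of the 6 genes had an entry.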

Additional observations from a re-analysis of the deposited data

How the results depend on the processing

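Of 44 differences (4 tested genes in 11 comparisons) 20 were called, and recomputed under 8 other settings and 12 fits that each left out 1 library they gave 376 values, of which 352 kept the call, 24 lost it and 0 changed sign. Of 456 values of uncalled differences 16 passed and 40 changed sign. The number of called inhibitor genes stayed at 3 for VP with and without OHT and for VP against Y27, and at 0 for OHT in VP and for the interaction of Y27 with OHT. For OHT in DMSO it was 2, but 1 in the 8 libraries with Y27, 3 under median-of-ratios scaling, quantile normalization or voom, and 1 to 2 when a library was left out. For Y27 without OHT it was 2, but 1 with a pseudocount of 0.1, quantile normalization, the replicate block or the 8 libraries with Y27, 4 under median-of-ratios scaling, 3 under voom and 1 to 3 when a library was left out. For OHT in Y27 it was 3, and 2 without a filter, in the 8 libraries with Y27 or without any 1 of the Y27 or Y27 + OHT libraries. For Y27 with OHT it was 1, and 1 to 2 when a library was left out, with 2 without DMSO + OHT replicate 1 (Cdkn2b at 0.28, adjusted p = 0.0191). For the VP by OHT interaction it was 0, but 1 under median-of-ratios scaling, quantile normalization, voom or the 8 libraries with VP and 0 to 1 when a library was left out. The calls over all genes moved with the settings too. Leaving aside the fits that left out a library, they ran from 3038 to 4588 for OHT in DMSO (main fit 3798). They ran from 5201 to 6282 for Y27 without OHT (5613) and from 2888 to 4740 for OHT in Y27 (3530). For the VP by OHT interaction they ran from 239 to 1201 (455), and for Y27 with OHT from 4403 to 5165 (4789). The genes tested were 11061 in the main fit and 21583 without a filter. The cause of these changes was not tested.

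Replicate numbers did not pair the libraries throughout: same-numbered deviations correlated at -0.223 to 0.279 over 15 pairs of groups. Of these 2 were over 0.1, and the highest was between DMSO and DMSO + OHT. The block ended 1 call, Cdkn1b in Y27 without OHT (0.15, adjusted p = 0.0583), and no other member's call. Over all genes the calls moved by over 1.5 times in the interactions (VP 455, from 128 to 1201 over the settings; Y27 7, from 1 to 131), in OHT in DMSO (3798, down to 2337) and in OHT in VP (657, from 83 to 726).

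Sign changes under other settings, none of a called difference, were as follows. Under median-of-ratios scaling, quantile normalization and voom, Cdkn2a came to -0.004, -0.016 and -0.007 for OHT in DMSO, 0.086, 0.024 and 0.092 for VP without OHT, 0.056, 0.001 and 0.051 for VP with OHT, -0.034, -0.039 and -0.049 for OHT in VP, and -0.046, -0.018 and -0.011 for OHT in Y27. For OHT in VP under those settings Cdkn1b came to -0.045, -0.069 and -0.066, Cdkn2b to -0.064, -0.043 and -0.083, and Cdkn2c to -0.008, -0.021 and -0.024. Where leaving out a library turned a sign, the range was -0.372 to 0.022 for Cdkn2b (OHT in DMSO), -0.091 to 0.064 for Cdkn2a (VP without OHT), -0.001 to 0.103 for Cdkn2a (OHT in VP), -0.004 to 0.048 for Cdkn2b (OHT in VP), -0.138 to 0.033 for Cdkn2a (VP with OHT), -0.05 to 0.057 for Cdkn2a (OHT in Y27), -0.031 to 0.06 for Cdkn1b (Y27 with OHT), -0.071 to 0.1 for Cdkn2a (Y27 with OHT), -0.114 to 0.279 for Cdkn2b (Y27 with OHT), -0.124 to 0.047 for Cdkn2a (VP by OHT interaction) and -0.336 to 0.057 for Cdkn2b (Y27 by OHT interaction).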
